A study of Danio rerio with 96 samples.

Results

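The region described here is an amplicon on zebrafish chromosome 8, from 22488700 to 22488907 on the forward strand (1-based; the submitters' processing notes name build GRCz10). It is 208 bp long and was taken as all cytosines listed on that strand between these positions. Of its 49 listed cytosines, 3 are CpGs with at least 30 reads in at least 48 libraries, at 22488753, 22488781 and 22488829. They are 3 of the 50 CpGs tested in the 8 amplicons of the series. They lie 28 and 48 bp apart, and the nearest to an end is 53 bp inside it, so each is more than 30 bp from the ends, where bases can come from a primer. No annotation of build GRCz10 was used here, so the gene that the amplicon belongs to, and whether it covers an exon, an intron or a UTR, are not given.

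The series holds 96 bisulfite amplicon libraries, 24 in each of 4 groups, made from heads that were dissected from 5-day-old zebrafish larvae. GR mutant larvae treated with 100 µM betamethasone are called mutant betamethasone larvae below, and GR mutant larvae in 0.2% ethanol are called mutant control larvae. Wild-type betamethasone larvae had the same 100 µM treatment and wild-type control larvae the same 0.2% ethanol. The labels do not name the GR mutant allele, the length of exposure, or the clutch a larva came from, and each library was counted as 1 larval head. A head holds many cell types, so a level is an average over them.

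In vertebrate genomes a methyl group is placed on cytosines that stand before a guanine (CpG), and most CpGs outside active promoters and enhancers carry it in most cells. The glucocorticoid receptor (GR, encoded by nr3c1) is a nuclear receptor that binds cortisol, the main stress hormone of fish, and then binds DNA and changes transcription. Betamethasone is a synthetic glucocorticoid that activates the same receptor. Bisulfite turns unmethylated cytosines into uracil, which is read as T, while methylated cytosines are still read as C. The level of a CpG is the share of its reads that kept the C.

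The bases around each CpG are shown because the 3 sites, although close together, behaved differently. They were put together from the sequence contexts in the deposited calls, which give only cytosines and the bases that follow them. Capitals mark the CpG, and n stands for a base that the calls do not give. The windows run from 22488739 to 22488768, from 22488767 to 22488796 and from 22488815 to 22488844 on chromosome 8.
CpG 22488753: nnnnnnnnnnnnnnCGnnctgncancagnn
CpG 22488781: nncccancancagnCGnncancannnnctn
CpG 22488829: gnnnncancagnctCGnncctgnnnnnctg
Each site stands alone in its window, with no further CpG within it.

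Depth was uneven. Reads from the amplicon were present in 94 of the 96 libraries, and 73 larvae had at least 30 reads at all 3 CpGs. These were 15 mutant betamethasone larvae with a median of 61 reads (30 to 2837), 18 mutant control larvae with a median of 168.5 (31 to 6286), 22 wild-type betamethasone larvae with a median of 1389 (35 to 8012) and 18 wild-type control larvae with a median of 180 (31 to 8019). Over libraries with any read, the geometric mean depth was 792 reads in wild-type betamethasone and 109 in wild-type control libraries (adjusted p = 0.00282, permutation test of log10 reads over 4 pairs of groups). It was 56.8 reads in mutant betamethasone and 792 in wild-type betamethasone libraries (adjusted p = 4.00e-05). Depth thus moved with the groups. It did not differ detectably between mutant betamethasone libraries, at 56.8 reads, and mutant control libraries, at 108 (adjusted p = 0.177), or between mutant and wild-type control libraries, at 108 and 109 (adjusted p = 0.984). Reads are PCR copies without molecular identifiers, after 40 cycles from 100 pg of converted DNA, so errors from read number cover counting error only.

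Some libraries resembled each other at this amplicon. Of pairs of libraries with at least 100 reads, 11 of 33 with neighbouring replicate numbers and the same group had like levels over all listed cytosines (33.3%). A pair counted as matching when its mean chi-square was below 2 per cytosine and below 4 per CpG. Single cytosines of a matching pair could still differ beyond sampling noise. Mutant control larvae 2 and 10 matched with a chi-square of 24.0 at 1 cytosine. Among pairs of the same group with more distant numbers 17 of 300 matched (5.67%), and among pairs from different groups 10 of 843 (1.19%). With at least 500 reads, pairs from different groups matched in 0 of 159 cases. Wild-type control larvae 1, 13, 14 and 15 formed a set of like libraries, with 5 of their 6 pairs matching. Wild-type betamethasone larvae 8, 9, 10, 21 and 22 formed another, with 9 of 10 pairs matching. When profiles over all listed cytosines were counted once, only libraries that all matched each other were merged. Larva 1 was then merged with 14, and 13 with 15. In the other set 8 was merged with 9 and 21, and 10 with 22, so neither set became a single profile. The 49 libraries compared left 34 profiles. Over the CpGs alone, libraries with at least 500 reads were merged when a chain of matches joined them. The tests below treat each library as 1 replicate. Level differences that change when matching libraries are counted once are given both ways. The tests of spread and those within depth classes were not run that way. Nor were the tests between groups of depth and of levels at cytosines outside CpGs.

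**Figure D1:**
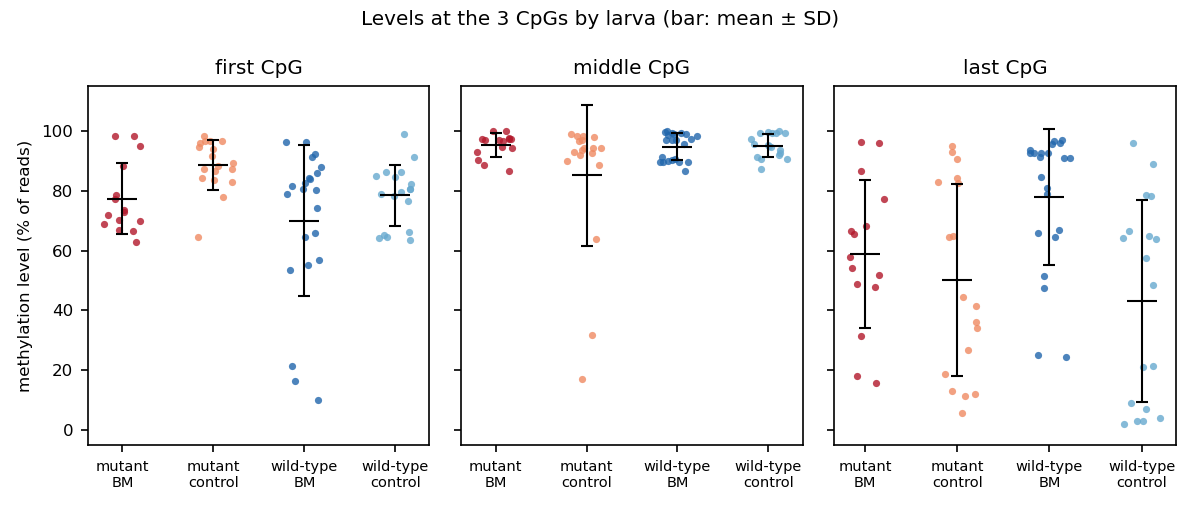
Methylation level in percent of reads at the first (22488753), middle (22488781) and last (22488829) CpG, with 1 point per larva and a bar for the mean ± SD, in mutant betamethasone (BM, n = 15), mutant control (n = 18), wild-type BM (n = 22) and wild-type control larvae (n = 18). The middle CpG is near 95% in most larvae, while the last CpG runs from 2.02% to 97.0%; some SD bars pass 100% because the levels are not symmetric.

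The middle CpG, 22488781, was the most methylated of the 3. Over all 73 larvae it had 92.5% ± 12.7 (SD), and it was the highest of the 3 CpGs in 55 of them, with a tie counted for the earlier CpG. Mutant betamethasone larvae ranged from 86.5% to 100% with a median of 96.9%, and mutant control larvae from 17.2% to 99.03% with a median of 93.8%. Wild-type betamethasone larvae ranged from 86.7% to 99.8% with a median of 96.9%, and wild-type control larvae from 87.1% to 100% with a median of 95.0%. The groups overlapped almost entirely. Only 3 of the 73 larvae were below 80%, and all were mutant control larvae with neighbouring numbers. Larva 15 had 31.7% at 41 reads, larva 16 had 17.2% at 289 reads and larva 17 had 63.9% at 36 reads.

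The first CpG, 22488753, was at 78.2% ± 17.4 (SD, n = 73). Mutant betamethasone larvae ranged from 62.9% to 98.3% with a median of 73.0%, and mutant control larvae from 64.5% to 98.4% with a median of 88.8%. Wild-type betamethasone larvae ranged from 10.2% to 96.4% with a median of 80.5%, and wild-type control larvae from 63.4% to 98.9% with a median of 79.9%. The lowest values lay in a few larvae of 1 group. Wild-type betamethasone larvae 13, 14 and 24 had 16.5%, 10.2% and 21.5%, at 400 reads or more, and no other larva of the 73 was below 50%.

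The last CpG, 22488829, had the widest spread. Its SD between larvae within groups was 28.6 percentage points, which ranked 1 of the 50 CpGs of the series. Wide spreads were not particular to it, since the 5 CpGs of the chromosome 6 amplicon at 49743949 followed with 24.3 to 25.2. At 22488829 mutant betamethasone larvae ranged from 15.8% to 96.4% with a median of 57.8%, and mutant control larvae from 5.68% to 95.1% with a median of 43.0%. Wild-type betamethasone larvae ranged from 24.4% to 97.0% with a median of 90.9%, and wild-type control larvae from 2.02% to 96.1% with a median of 53.0%. Thus single larvae covered most of the scale in all 4 groups, and most wild-type betamethasone larvae were near the top. Those near the top included the like set 8, 9, 10, 21 and 22 and the matching pair 13 and 24. Levels above 80% were found in 3 of 15 mutant betamethasone, 6 of 18 mutant control, 14 of 22 wild-type betamethasone and 2 of 18 wild-type control larvae. Levels below 20% were found in 2 mutant betamethasone, 5 mutant control, 0 wild-type betamethasone and 6 wild-type control larvae.

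Counting error was small beside the spread at 22488829. At 22488829 the SD over all larvae was 31.2 percentage points, 7.09 times the mean binomial SD of 4.40 that the read numbers give. At 22488781 the ratio over all larvae was 4.79 and at 22488753 it was 4.55, but groups differed. At 22488781 it was 1.37 in mutant betamethasone, 7.32 in mutant control, 2.78 in wild-type betamethasone and 1.39 in wild-type control larvae. With 30 to 99 reads, the SD at 22488753 was below the binomial SD in mutant betamethasone (6.21 and 6.52) and mutant control larvae (3.64 and 5.56). Within groups, the mean absolute deviation from the median at 22488829 was 16.0 percentage points in wild-type betamethasone and 30.0 in wild-type control larvae (p = 0.0264, adjusted p = 0.257, permutation test). None of the 12 tests of spread, over 3 CpGs and 4 pairs of groups, passed after adjustment, and 1 had an unadjusted p below 0.05. The resampling mixed the levels themselves and not their deviations from the group medians. These p-values can thus also reflect a difference in level between the groups, and do not measure spread alone. With a minimum of 100 reads 1 of the 12 passed, at 22488781 under betamethasone, where the deviation was smaller in mutant than in wild-type larvae by -3.44 percentage points (n = 25, of which 5 were mutants, permutation adjusted p = 0.00888). Of these mutants, larva 12 matched 13 and larva 23 matched 24. The wild-type larvae included the like set 8, 9, 10, 21 and 22, between 89.5% and 90.5% at this site. This test was not run with matching libraries counted once.

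The 3 CpGs of a larva did not move as a block. The difference between the highest and the lowest of them had a median of 34.3 percentage points and ran from 1.81, in mutant betamethasone larva 24, to 97.4, in wild-type control larva 13. The last CpG was the lowest of the 3 in 52 of 73 larvae and the first in 20, where ties counted for the first. First and last were tied in mutant betamethasone larva 9, wild-type betamethasone larva 15 and wild-type control larva 6. The last CpG lay below the first in 13 of 15 mutant betamethasone larvae, 17 of 18 mutant control larvae, 9 of 22 wild-type betamethasone larvae and 14 of 18 wild-type control larvae.

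Relations between the CpGs were computed within each group, as 12 relations. In wild-type control larvae the middle and last CpGs went in opposite directions (Pearson r = -0.785, permutation adjusted p = 0.00252; Spearman rho = -0.750, adjusted p = 0.00336; n = 18). Without the 2 larvae farthest from the median of the middle CpG, r was -0.884, and with matching profiles counted once it was -0.751 (n = 15, permutation p = 0.00192). The middle CpG of these larvae covered a narrow range, from 87.1% to 100%. In wild-type betamethasone larvae the first and last CpGs had a Spearman rho of -0.740 (adjusted p = 0.00192, n = 22) and a Pearson r of -0.550 (adjusted p = 0.0559). Without the 2 farthest larvae r was -0.536, and with matching profiles counted once it was -0.606 (n = 18). The other 10 relations did not pass by either measure.

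**Figure D2:**
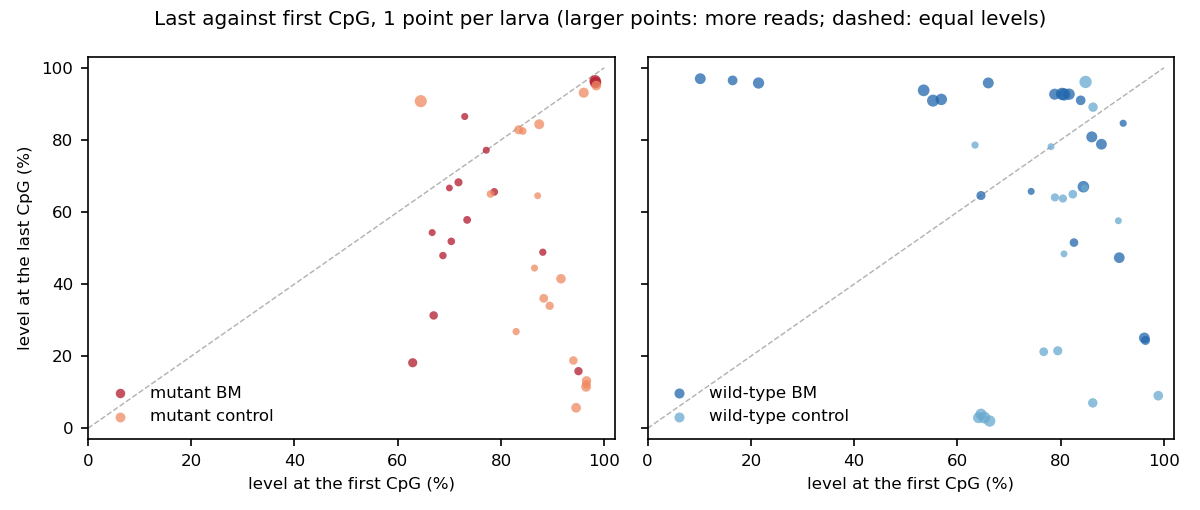
Level at the last CpG (22488829, vertical axis, percent) against the first CpG (22488753, horizontal axis, percent), 1 point per larva, larger with more reads, for mutant (left) and wild-type larvae (right), with a dashed line where both are equal. Larvae of the mutant groups lie mostly below the line (13 of 15 with betamethasone and 17 of 18 controls), and 3 wild-type betamethasone (BM) larvae stand apart at the left with a first CpG below 25% and a last CpG above 95%.

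The first comparison set betamethasone against control larvae of the wild-type genotype. Of the 3 CpGs, 1 passed, against 11 of 50 (22.0%) over the whole series and 6.00% in the direction of higher levels. Position 22488829 rose to 77.8% ± 22.7 (SD, n = 22) in betamethasone larvae, against 43.2% ± 33.8 (SD, n = 18) in control larvae. The difference was 34.6 percentage points (SE 9.31, 95% interval 16.4 to 52.9, adjusted p = 0.00178, beta-binomial test), and 18 of 22 betamethasone larvae lay above the control median. The groups still overlapped over most of the scale.

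This difference was smaller where larvae with like profiles were left out or counted once. The 4 matching wild-type control larvae 1, 13, 14 and 15 were all low, with 2.92%, 2.02%, 3.93% and 2.97% at 22488829. Without them the difference was 23.1 percentage points (adjusted p = 0.0428). With profiles that match over the CpGs counted once it was 24.0 (adjusted p = 0.0619), and with those that match over all cytosines counted once 24.4 (adjusted p = 0.0576). With runs of 4 neighbouring numbers averaged it stayed near its size, at 33.4 (adjusted p = 0.0541, exact permutation test of 12 run means). It no longer passed under those 3 settings. It passed with a minimum of 100 reads (49.0, beta-binomial adjusted p = 0.00125) and with a replicate block (31.3, permutation adjusted p = 0.0326). Matching larvae counted separately in those 2. In the match over all cytosines, larvae 1 and 14 stayed apart from 13 and 15, so these low controls still counted more than once. Leaving out any single library gave 32.2 to 37.7, and each of these fits passed.

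The other wild-type values did not differ detectably. Position 22488753 was at 70.0% ± 25.3 (SD, n = 22) in betamethasone and 78.5% ± 10.2 (SD, n = 18) in control larvae, a difference of -8.41 (95% interval -20.0 to 3.15, adjusted p = 0.618). Position 22488781 was at 94.7% ± 4.46 in betamethasone and 95.1% ± 3.91 in control larvae, a difference of -0.38 (95% interval -2.97 to 2.22, adjusted p = 0.838). Weighted by reads, the difference at 22488781 was -3.60 and passed (adjusted p = 0.0301, quasi-binomial test). The like sets weigh much in this value. Betamethasone larvae 8 and 21 had 89.5% and 90.5% at 8000 and 8012 reads. Control larvae 1, 13, 14 and 15 had 99.3% to 99.5%, while the deepest control, larva 8, had 93.6% at 8019 reads. The weighted test was not run with matching libraries counted once. Summed over the 3 CpGs, the amplicon rose to 80.9% ± 6.94 in betamethasone larvae, against 72.3% ± 11.8 in control larvae, by 8.59 (SE 3.15, adjusted p = 0.0290), with 17 of 22 larvae above the control median. The amplicon was 1 of 3 that passed of 8 (37.5%). It no longer passed without wild-type control larva 1 (7.60), 13 (7.62) or 15 (7.62), with adjusted p between 0.0570 and 0.0574. It did not pass without all 4 matching larvae either (3.87, adjusted p = 0.297).

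Among GR mutants, 0 of the 3 CpGs passed between betamethasone and control larvae by the beta-binomial test, against 1 of 50 (2.00%) over the series. An unadjusted p below 0.05 was found for 1 of the 3, against 16.0% of the 50. That was 22488753, at 77.3% ± 11.9 (SD, n = 15) in betamethasone and 88.7% ± 8.39 (SD, n = 18) in control larvae. The difference was -11.4 percentage points (SE 3.65, p = 0.0396, adjusted p = 0.247), with 12 of the 15 treated mutants under the median of the controls. This value depended on 3 deep larvae. Mutant betamethasone larvae 23 and 24 had 98.3% and 98.2% at 2837 and 2321 reads, and mutant control larva 23 had 64.5% at 6286 reads. Leaving out larvae with 1000 or more reads, a setting added after seeing the data, removed just these 3. The difference then had to grow, and was -16.0 (adjusted p = 0.000421, beta-binomial test), which is no separate support for it. In the quasi-binomial test, where deep larvae weigh more, the difference was 19.3 in the opposite direction (adjusted p = 0.0101).

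The remaining mutant values had wide intervals. Position 22488829 was at 58.8% ± 24.8 in betamethasone and 50.1% ± 32.2 in control larvae, a difference of 8.71 (95% interval -10.7 to 28.2, adjusted p = 0.661). Position 22488781 was at 95.1% ± 4.01 in betamethasone and 85.1% ± 23.5 in control larvae, a difference of 10.0 (95% interval -1.05 to 21.1, adjusted p = 0.528). The amplicon was at 77.1% ± 10.3 in betamethasone and 74.6% ± 14.3 in control larvae, a difference of 2.44 (95% interval -5.99 to 10.9, adjusted p = 0.652), where 0 of the 8 amplicons passed by the beta-binomial test and 1 had an unadjusted p below 0.05. Weighted by reads the amplicon difference was 13.2 (adjusted p = 0.0159, quasi-binomial test). The deep larvae named above weigh most in it.

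Between control larvae of both genotypes, 1 of the 3 CpGs passed, against 18 of 50 (36.0%) over the series and 22.0% in the direction of higher levels. Position 22488753 was higher in mutants, at 88.7% ± 8.39 (SD, n = 18) against 78.5% ± 10.2 (SD, n = 18) in wild types, by 10.2 percentage points (SE 3.11, adjusted p = 0.0147). Of the 18 mutant larvae, 16 lay above the wild-type median. The wild-type set of larvae 1, 13, 14 and 15 was low at this site too, between 64.1% and 66.2%. Without them the difference was 6.37 (adjusted p = 0.110), and with profiles that match over all cytosines counted once it was 6.60 (adjusted p = 0.183). Weighted by reads it was -0.27 (adjusted p = 0.948, quasi-binomial test), while 22488781 then passed at -8.22 (adjusted p = 0.00801). Mutant control larva 23, with 64.5% at 22488753 and 6286 reads, weighs most on the mutant side. Position 22488829 was at 50.1% ± 32.2 in mutants and 43.2% ± 33.8 in wild types (difference 6.91, 95% interval -14.6 to 28.5, adjusted p = 0.452). Position 22488781 was at 85.1% ± 23.5 in mutants and 95.1% ± 3.91 in wild types (difference -9.97, 95% interval -21.0 to 1.05, adjusted p = 0.176). The amplicon was at 74.6% ± 14.3 in mutants and 72.3% ± 11.8 in wild types (difference 2.37, adjusted p = 0.531), where 3 of the 8 amplicons passed (37.5%). It passed, at 12.4 (adjusted p = 0.0137, n = 24), without libraries above 2% non-CpG methylation over all amplicons, a limit that kept 14 of 18 mutant and 10 of 18 wild-type control larvae, among them larvae 1, 13, 14 and 15. With all libraries but those 4 it was -2.35 (adjusted p = 0.922).

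Under betamethasone, 0 of the 3 CpGs passed between the genotypes by the beta-binomial test, against 5 of 50 (10.0%). An unadjusted p below 0.05 was found for 1 of the 3, against 24.0% of the 50. Position 22488829 was at 58.8% ± 24.8 (SD, n = 15) in mutants and 77.8% ± 22.7 (SD, n = 22) in wild types. The difference was -19.0 percentage points (SE 8.03, p = 0.0263, adjusted p = 0.146), with 13 of 15 mutants below the wild-type median. Depth also differed most between these groups. Weighted by reads, the level at this site was 88.0% in mutant and 86.9% in wild-type betamethasone larvae. The weighted mutant level rests mainly on the matching larvae 23 and 24. They had 95.9% and 96.4% at 2837 and 2321 reads, against a group median of 61 reads. Position 22488753 was at 77.3% ± 11.9 in mutants and 70.0% ± 25.3 in wild types (difference 7.25, adjusted p = 0.698). Position 22488781 was at 95.1% ± 4.01 in mutants and 94.7% ± 4.46 in wild types (difference 0.42, 95% interval -2.34 to 3.17, adjusted p = 0.943). For the whole amplicon the levels were 77.1% ± 10.3 in mutants and 80.9% ± 6.94 in wild types (difference -3.78, adjusted p = 0.816), where 2 of the 8 amplicons passed (25.0%). Weighted by reads the difference was 24.7 at 22488753 (adjusted p = 0.0460) and 9.96 for the amplicon (adjusted p = 0.0191), and both passed. On the mutant side these also rest mainly on larvae 23 and 24, with 98.3% and 98.2% at 22488753.

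The interaction of genotype and treatment sets the betamethasone difference of mutants against that of wild types. Of the 3 CpGs 0 passed by the beta-binomial test, against 7 of 50 (14.0%), and 1 had an unadjusted p below 0.05, against 28.0% of the 50. At 22488829 the betamethasone difference was 8.71 percentage points in mutant and 34.6 in wild-type larvae. The interaction was -25.9 percentage points (SE 13.6, 95% interval -52.6 to 0.77, n = 73). Its beta-binomial test, made on the log-odds scale, gave p = 0.0366 (adjusted p = 0.141). A permutation test of the value in percentage points gave p = 0.0731 (adjusted p = 0.228). The difference seen in wild-type larvae was thus not shown to be larger than that in mutants. The interaction passed, at -46.1 (adjusted p = 0.0209, n = 59), when libraries above 2% non-CpG methylation over all amplicons were left out. This kept 10 of 18 wild-type control larvae, among them the 4 matching ones. With all libraries but those 4 it was -14.4 (adjusted p = 0.487), and with matching CpG profiles counted once -17.9 (adjusted p = 0.357). At 22488753 the interaction was -2.96 (adjusted p = 0.717) and at 22488781 it was 10.4 (adjusted p = 0.402). Weighted by reads they were 25.0 (adjusted p = 0.0320) and 12.4 (adjusted p = 0.00238, quasi-binomial test), so both passed and the first turned its direction. The amplicon gave -6.15 (adjusted p = 0.587), where 3 of the 8 amplicons passed (37.5%), and -16.4 (adjusted p = 0.0494) under the same non-CpG limit. Weighted by reads it was 2.47, in the opposite direction (adjusted p = 0.286). In mutants all of these weighted values rest mainly on the few deep larvae named above.

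**Figure D3:**
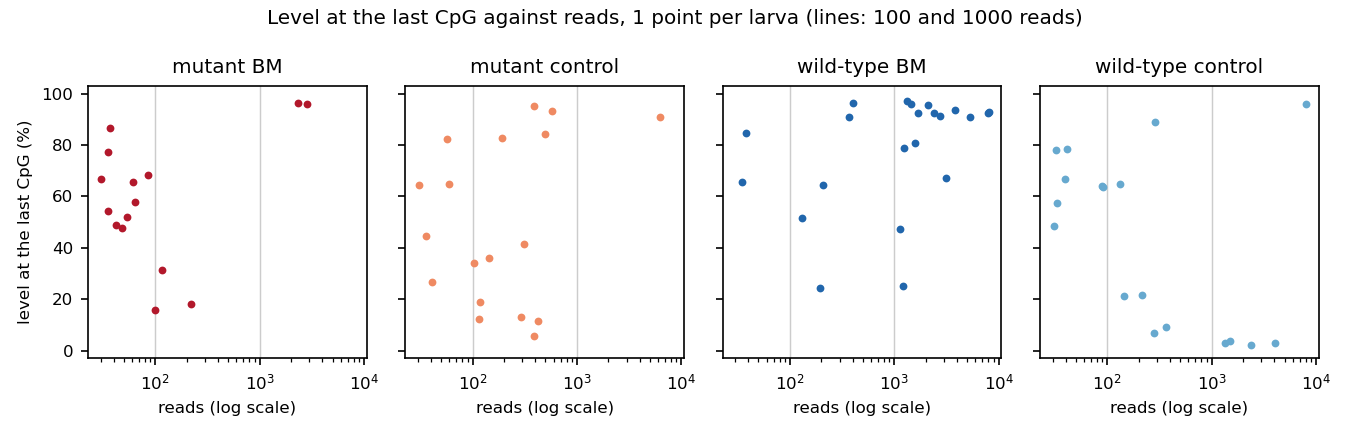
Level at the last CpG (22488829, percent) against the number of reads on a log scale, 1 point per larva, in mutant betamethasone (BM), mutant control, wild-type BM and wild-type control larvae, with lines at 100 and 1000 reads. Below 100 reads all larvae lie between 26.8% and 86.5%, and above it they reach both ends of the scale.

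Depth went with the spread at 22488829. The 24 larvae with 30 to 99 reads had 63.1% ± 14.3 (SD), from 26.8% to 86.5%. The 26 larvae with 100 to 999 reads had 43.6% ± 32.8, and the 23 with 1000 or more had 70.7% ± 36.2. Over all groups the larvae with the fewest reads had the smallest spread, but groups are not equally represented in the classes. The SD was 12.7 at 30 to 99 reads (n = 10) and 8.33 at 100 to 999 (n = 3) in mutant betamethasone larvae. In these classes it was 21.4 (n = 5) and 35.0 (n = 12) in mutant control larvae. It was 13.4 (n = 2) and 29.6 (n = 5) in wild-type betamethasone larvae. In wild-type control larvae it was 10.7 (n = 7) and 33.6 (n = 6). Between these classes the SD was thus not larger with more reads in mutant betamethasone larvae. Levels of this group ran from 15.8% to 31.3% at 100 to 999 reads, and the 2 larvae with more had 95.9% and 96.4%. Below 100 reads they ran from 47.9% to 86.5%, so the range of the group was wider with at least 100 reads. Of these deeper larvae, 12 matched 13 and 23 matched 24. No larva below 100 reads was under 20% or above 90% at this site.

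The wild-type betamethasone difference at 22488829 was then taken within depth classes, with exact permutation tests over larvae adjusted over 21 tests (3 CpGs in the classes and pairs of groups with at least 3 larvae each, chosen with the data known). With 1000 or more reads, 15 betamethasone larvae had 82.3% ± 20.8 and 5 control larvae 21.6% ± 41.6, a difference of 60.7 (exact p = 0.00148, adjusted p = 0.0312). Of these 5 control larvae, 4 were the matching set near 3%, and larva 8 had 96.1%. With 100 to 999 reads, 5 betamethasone larvae had 65.6% ± 29.6 and 6 control larvae 35.5% ± 33.6, a difference of 30.1 (exact p = 0.139, adjusted p = 0.364). Below 100 reads, the only 2 betamethasone larvae had 65.7% and 84.6%, and 7 control larvae had 65.3% ± 10.7, so no test was made. Betamethasone larvae had the higher mean in each class, but the test passed only in the deepest class, where 4 of the 5 control larvae have like profiles.

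At the first CpG the mutant difference had the same sign in both classes that could be tested. With 1000 or more reads, too few for a test, it had the opposite sign, with 98.3% in 2 mutant betamethasone larvae and 64.5% in 1 mutant control larva. With 30 to 99 reads, 22488753 had 73.8% ± 6.21 in 10 mutant betamethasone larvae and 83.7% ± 3.64 in 5 mutant control larvae (difference -9.95, exact p = 0.00932, adjusted p = 0.0962). With 100 to 999 reads it had 75.0% ± 17.5 in 3 mutant betamethasone larvae and 92.7% ± 4.66 in 12 mutant control larvae (difference -17.8, exact p = 0.0176, adjusted p = 0.0962). Between control larvae with 100 to 999 reads it had 92.7% ± 4.66 in 12 mutant and 85.0% ± 7.78 in 6 wild-type larvae (difference 7.75, exact p = 0.0183, adjusted p = 0.0962). None of these 3 passed after adjustment, and all counted matching libraries separately. With 100 to 999 reads, mutant betamethasone larva 12 matched 13, and wild-type control larva 16 matched 17. Most mutant controls of that class fell into matching sets, namely 1, 12 and 24, further 4, 10 and 11, then 18 and 19, and last 20 and 21.

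Within groups, level was set against log10 reads at each CpG, as 12 relations. In wild-type control larvae 22488781 had higher levels in deeper libraries (Pearson r = 0.654, permutation adjusted p = 0.0412; Spearman rho = 0.702, adjusted p = 0.0203; n = 18). Without the 2 larvae farthest from the median depth r was 0.805. With matching profiles counted once it was 0.580 (n = 15, permutation p = 0.0235), and with a minimum of 10 reads it was 0.434 (n = 21, adjusted p = 0.150), which did not pass. At 22488829 of these larvae r was -0.424 (adjusted p = 0.243), and -0.750 without the 2 farthest. In wild-type betamethasone larvae the sign at 22488829 was the opposite, with r = 0.392 (permutation adjusted p = 0.243), and 0.504 without the 2 farthest. With matching profiles counted once, r at this site was -0.292 in wild-type control (n = 15) and 0.322 in wild-type betamethasone larvae (n = 18). Mutant betamethasone larvae had r = 0.634 at 22488753 (adjusted p = 0.0909), which rested on larvae 23 and 24, since r was -0.117 without the 2 farthest. In 2 further relations r turned its sign without the 2 farthest larvae, at 22488829 in mutant betamethasone larvae (r = 0.345, and -0.747 without them) and at 22488753 in mutant control larvae (r = -0.159, and 0.660 without them). Over all larvae of a group, only 22488781 in wild-type control larvae passed among the 12 relations.

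Cytosines outside CpGs gave a measure of unconverted or non-CpG methylated cytosines in the same reads. Over the 32 such cytosines more than 30 bp from the ends, the level was 1.43% ± 0.641 (SD, n = 15) in mutant betamethasone, 0.87% ± 0.505 (n = 18) in mutant control, 2.22% ± 0.889 (n = 22) in wild-type betamethasone and 1.20% ± 0.639 (n = 18) in wild-type control larvae. It was higher with betamethasone in wild-type larvae, by 1.01 percentage points (adjusted p = 0.000600, permutation test over 4 pairs), and in mutants, by 0.56 (adjusted p = 0.0110). It was lower in mutant than in wild-type betamethasone larvae, by -0.78 (adjusted p = 0.00918), and did not pass between mutant and wild-type control larvae (-0.33, adjusted p = 0.0911). These tests counted every library, and were not run with matching libraries counted once. The higher non-CpG level thus moved with betamethasone, as did the level at 22488829 in wild-type larvae. At this amplicon 11 of 22 wild-type betamethasone and 2 of 18 wild-type control larvae were above 2%. The part of the non-CpG level in the difference at 22488829 was not tested. Leaving out libraries above 2% over all amplicons, which kept 10 of those 11 betamethasone larvae, gave a difference of 53.3 at 22488829 (adjusted p = 0.000153, n = 30, beta-binomial test). That limit kept 10 of 18 wild-type control larvae, among them the low matching larvae 1, 13, 14 and 15. With all libraries but those 4 the difference was 23.1 (adjusted p = 0.0428, beta-binomial test).

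The non-CpG signal was not spread evenly. Of the 32 cytosines, 15 exceeded 10% in at least 1 larva, and 29 of 73 larvae had at least 1 such cytosine. These were 5 of 15 mutant betamethasone, 3 of 18 mutant control, 15 of 22 wild-type betamethasone and 6 of 18 wild-type control larvae. Among larvae with at least 100 reads they were 3 of 5 mutant betamethasone, 2 of 13 mutant control, 14 of 20 wild-type betamethasone and 5 of 11 wild-type control larvae. Position 22488777, 4 bases before the middle CpG, was at 87.5%, 73.6% and 68.7% in wild-type betamethasone larvae 14, 13 and 24. Those are the same 3 larvae whose first CpG was at 10.2%, 16.5% and 21.5%. Position 22488774 exceeded 10% in 5 larvae, all wild-type betamethasone, with 71.3% in larva 6, 53.1% in larva 20, 27.3% in larva 5, 24.4% in larva 19 and 21.3% in larva 7. At 22488829 larvae 6, 20 and 7 had 25.1%, 47.3% and 24.4%, which were the 3 lowest values of their group, and larvae 5 and 19 had 78.8% and 80.8%.

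Further cytosines stood out in single libraries or matching sets. Position 22488823, 6 bases before the last CpG, was at 73.3% in mutant betamethasone larva 2, whose last CpG was at 15.8%, the lowest of its group. In the matching wild-type control larvae 13, 1, 15 and 14 the same position had 16.2%, 15.4%, 15.0% and 13.6%. Position 22488764 was at 50.1% in mutant betamethasone larva 23 and at 49.9% in larva 24, the 2 deepest of their group, which also matched at the CpGs. These patterns were chosen after the values were seen and were not tested.

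**Figure D4:**
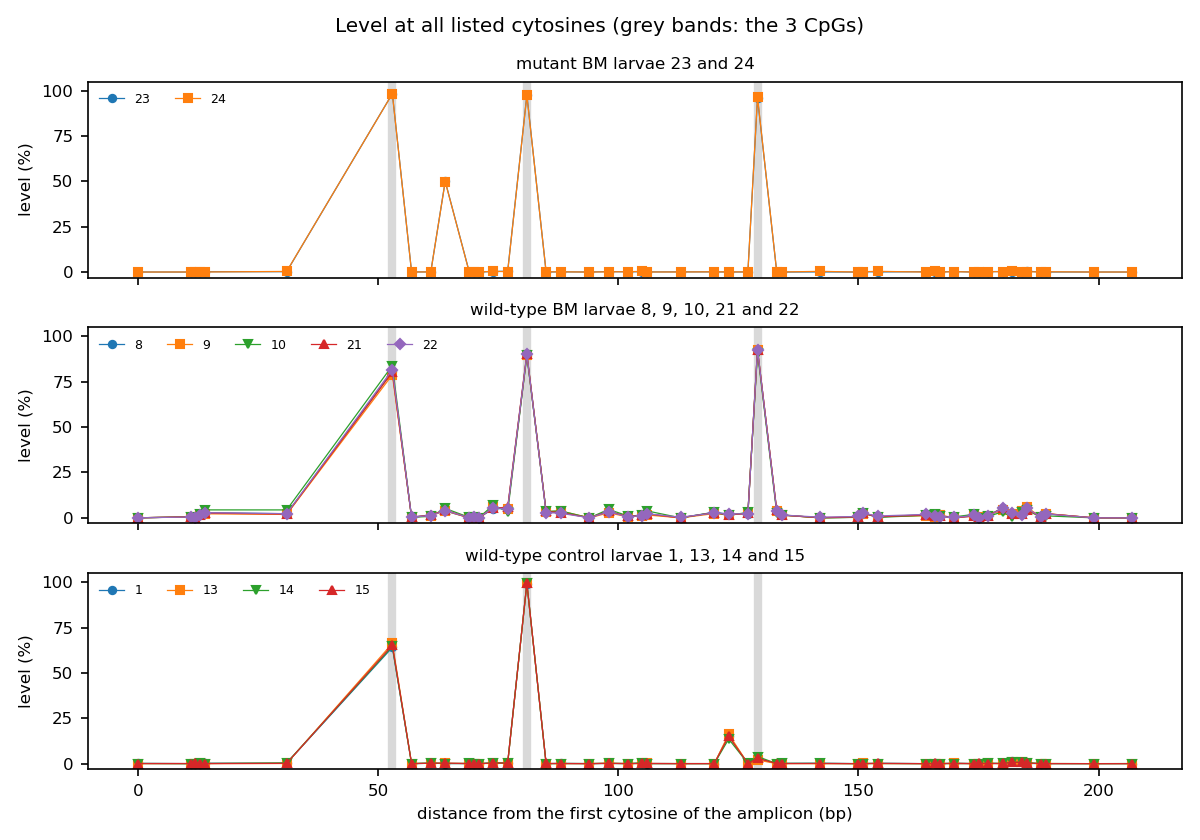
Level in percent at each listed cytosine against distance in bp from the first cytosine of the amplicon, for 3 sets of larvae with like profiles (mutant betamethasone, BM, 23 and 24 at the top, wild-type BM 8, 9, 10, 21 and 22 in the middle, wild-type control 1, 13, 14 and 15 at the bottom), with grey bands at the 3 CpGs. Lines within a panel lie on top of each other, and each of the 3 panels has its own pattern: a non-CpG cytosine near 50% at the top, a last CpG near 92% in the middle, and a last CpG between 2.02% and 3.93% at the bottom.

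Depth varied within the matching sets. Their levels are alike because the sets were chosen by like levels, so they cannot show whether depth affects the level. Wild-type betamethasone larvae 8, 9, 10, 21 and 22 had 8000, 1706, 366, 8012 and 2417 reads, and 92.6%, 92.7%, 91.0%, 92.8% and 92.7% at 22488829. Wild-type control larvae 1, 13, 14 and 15 had 1334, 2379, 1498 and 4072 reads, and 99.3%, 99.4%, 99.3% and 99.5% at 22488781. Other matching pairs had other levels, such as wild-type control larvae 16 and 17, with 21.5% and 21.2% at 22488829, and mutant control larvae 18 and 19, with 95.1% and 93.1%. Mutant control larvae 4, 10 and 11 had 11.5%, 12.2% and 18.8%. What the larvae of a set share beyond their group is not stated in the labels, and its part in the results was not tested.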

How the data were processed

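Per the labels' protocols, heads were dissected, DNA was converted with bisulfite, amplified by a first PCR, pooled per sample, barcoded in a second PCR and sequenced in paired reads. Per the submitters' processing notes, the tools were FastQC, cutadapt and BS-Seeker2 and the build GRCz10, and their versions and settings were not given there. The authors deposited, for each cytosine, a methylation level as a fraction, a count of all reads and a count of methylated ones. That fraction differed from the ratio of the counts by more than rounding at 0 cytosines, and the counts were used. Libraries held 19 to 2009599 cytosine calls in all.

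CpGs with at least 30 reads in at least 10 larvae of each group were tested by beta-binomial regression (larvae as replicates; likelihood ratio, two-sided). Benjamini-Hochberg adjustment covered the 50 CpGs or the 8 amplicons in each comparison, and 0.05 was the threshold. Differences are between unweighted group means in percentage points, with 95% intervals from the SE. The regression works on the log-odds scale, so its p-values do not test these differences directly. Permutation tests used 100000 resamples, two-sided. Simulated counts were used to test the regression. Nothing in the labels says that libraries came from separate clutches, so p-values cover the spread between libraries, which may be technical.

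All 3 CpGs and the whole amplicon are named in every comparison. The amplicon, the CpGs and the comparisons were chosen with earlier results of these data known. The alternatives were other read minima (10, 100, 1000), reads scaled down to 100, a permutation and a quasi-binomial test, leaving out libraries with over 2% non-CpG methylation or CpGs at the ends of the scale, a replicate block, matching libraries counted once, runs of 4 neighbouring numbers averaged and each library left out in turn. Added after seeing the data were matching over all cytosines, larvae below 1000 reads, and the 4 matching wild-type control larvae left out. Software was scipy 1.17.1, numpy 2.4.6, pandas 2.3.3 and matplotlib 3.10.9 under Python 3.11.15.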

Additional observations from a re-analysis of the deposited data

How the results depend on the processing

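Of the alternative values listed for the CpG and amplicon comparisons, 220 kept their direction and their side of the threshold, 30 reversed, 15 no longer passed and 9 newly passed. Fits without 1 library entered these counts only if they gave the lowest or highest difference or changed the call or direction. The counts are thus not shares of all fits run. Apart from 4 values of the quasi-binomial test, the reversed differences passed under neither setting. The quasi-binomial test, weighted by reads, reversed 22488753 in mutants (19.3), between control genotypes (-0.27) and in the interaction (25.0), 22488829 between betamethasone genotypes (1.07), and the amplicon between betamethasone genotypes (9.96) and in the interaction (2.47). It newly passed 22488781 in wild types (-3.60), between control genotypes (-8.22) and in the interaction (12.4), 22488753 between betamethasone genotypes (24.7) and the amplicon in mutants (13.2). With a minimum of 10 reads 22488781 between betamethasone genotypes was -1.21.

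Without libraries above 2% non-CpG methylation the amplicon reversed in mutants (-0.99) and newly passed between control genotypes (12.4) and in the interaction (-16.4), as did 22488829 in the interaction (-46.1). With the replicate number as a block, 22488753 between control genotypes no longer passed (6.41), and reversed values were 22488829 (-0.97) and the amplicon (-2.61) between control genotypes, 22488781 between betamethasone genotypes (-0.60), and 22488753 (11.0) and the amplicon (1.85) in the interaction. Whether equal numbers pair the samples is not known. Deviations of libraries with equal numbers correlated above 0.1 in 12 of 23 wild-type, 15 of 24 mutant, 8 of 24 control and 9 of 23 betamethasone pairs. The median correlations were 0.101, 0.220, -0.084 and -0.196 in that order. Pairs with unlike numbers were not set beside them, so these values cannot decide it.

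With matching CpG profiles counted once, 22488829 (24.0) and the amplicon (3.73) in wild types and 22488753 between control genotypes (7.52) no longer passed. Reversed were 22488781 in wild types (1.04) and between betamethasone genotypes (-0.31), 22488829 (-1.15) and the amplicon (-0.93) between control genotypes, and 22488753 in the interaction (0.88). With run means, 22488829 (33.4) and the amplicon (8.29) in wild types and 22488753 between control genotypes (8.68) no longer passed, and the amplicon between control genotypes reversed (-0.68). With matching over all cytosines, 22488829 (24.4) and the amplicon (5.34) in wild types and 22488753 between control genotypes (6.60) no longer passed. Reversed were 22488781 in wild types (0.94) and between betamethasone genotypes (-0.60), and the amplicon between control genotypes (-2.14).

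Among larvae below 1000 reads 22488753 newly passed in mutants (-16.0), where the deep larvae left out all lay against this difference. The amplicon in mutants (-0.28) and 22488829 (-3.80) and the amplicon (-1.62) between control genotypes reversed. Without wild-type control larvae 1, 13, 14 and 15, the amplicon in wild types (3.87) and 22488753 between control genotypes (6.37) no longer passed. Reversed were 22488781 in wild types (0.84), 22488829 (-4.60) and the amplicon (-2.35) between control genotypes, and 22488753 in the interaction (0.87). Leaving out 1 library at a time gave -0.85 to 0.0017 at 22488781 and 7.60 to 9.72 for the amplicon in wild types. The settings that leave out or merge larvae test fewer of them; for the others the cause was not tested.

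With at least 100 reads 1 difference in spread newly passed, at 22488781 between betamethasone genotypes (-3.44). Differences in spread that reversed were those at 22488829 with at least 100 reads (1.49 in mutants, 5.27 between control genotypes) and, without libraries above 2% non-CpG methylation, at 22488781 (0.17 in mutants, -0.85 between control genotypes) and 22488829 (4.82 between control genotypes). Depth relations that reversed were Spearman's rho at 22488829 in mutant betamethasone (-0.045) and at 22488753 in mutant control larvae (0.354), and r at 22488753 in mutant control larvae with at least 10 reads (0.025). For the tests of level, no comparison had 10 larvae per group at 1000 reads, and those with mutant betamethasone larvae had fewer than 10 at 100 reads. Run means gave no interaction, and larvae below 1000 reads no comparison of levels with wild-type betamethasone larvae. These settings were not run for those levels. The tests of spread at 100 reads had no such minimum. Depth limits most the mutant betamethasone group, with a median of 61 reads.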
